A study of Mus musculus with 9 samples.

Results

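The transcripts described here are 9 genes of the epidermal growth factor (EGF) family in mouse back skin, chosen by gene symbol from 23282 entries of each count table. They comprise 3 receptor genes (Egfr, Erbb2 and Erbb3) and 6 genes for ligands of the EGF receptor (Hbegf, Areg, Ereg, Tgfa, Btc and Epgn). All 9 symbols were found once in each table. Of these, 7 passed the filter on low counts and were tested, while Tgfa and Erbb3 did not pass and are given as counts. The animals were wild-type mice of the C57BL/6 (B6) strain, and their age and sex were not given in the sources used here. A group of 3 libraries came from unstripped skin, a group of 3 from tape-stripped skin under control cream (stripping with adhesive tape removes outer epidermal cell layers), and a group of 3 from stripped skin under a cream with nano-sized graphene oxide (NGO), sheets of oxidised carbon. Each NGO mouse received 50 µg in 100 µL of cream, and the skin was collected after 24 h. The unstripped samples carry a control cream label too, but the protocol places cream on stripped skin, so whether they received it is not known. Nothing in the labels says that libraries of a group came from separate mice, so p-values measure only the spread between these samples, which may be technical.

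EGF family ligands are made as membrane-anchored precursors on the cell surface and are cut loose by ADAM proteases. The freed ligand binds the EGF receptor on the same or a neighbouring cell, the receptor pairs with a second receptor of the ERBB family, and the signal runs through RAS and the ERK kinases into the nucleus. In epidermis this pathway is known for driving keratinocyte growth and migration during wound closure and for holding back terminal differentiation, and keratinocytes make several of the ligands themselves.

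Library totals ran from 2019739 to 6303322 counts, of which the 9 genes together took 663 to 2377. The tissue label was checked against marker genes, and epidermal keratin genes were found in every group. The share of counts from 10 basal keratinocyte markers, none of them at 0 in any group, was 2.71% to 3.34% for unstripped, 0.145% to 0.246% for stripped control and 1.36% to 2.10% for NGO-treated libraries, and 8 of the 10 fell after stripping. Skeletal muscle markers (10 genes, all 10 higher after stripping) took 0.00629% to 0.110%, 3.42% to 6.69% and 1.73% to 3.23% of counts in the same order. Neutrophil markers (9 genes, 5 higher after stripping, Clec4d at 0 in unstripped skin) took 0.0102% to 0.0150%, 0.289% to 0.855% and 0.0674% to 0.196%. Levels below are counts scaled to a library of 1000000 (CPM). In bulk tissue fewer cells of a type and less RNA per cell cannot be told apart. The part that these shifts in tissue make-up play in the levels below was not tested. The ratios to basal markers given further on do not test it, because the basal marker counts themselves differ between the groups.

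Hbegf, which encodes heparin-binding EGF-like growth factor (mm10 chromosome 18, 36504927 to 36515805, minus strand), was the ligand gene with the most counts over the 9 libraries. Its level was 122, 37.8 and 54.5 CPM in the unstripped libraries, 559, 578 and 720 CPM in the stripped control libraries, and 264, 215 and 150 CPM in the NGO-treated libraries. The 3 groups did not overlap at any point, with stripped control skin highest, NGO-treated skin between and unstripped skin lowest. Unstripped replicate 1 stood above the other two unstripped libraries. After stripping Hbegf rose 8.68-fold (log2 fold change 3.12 ± 0.43 SE, edgeR quasi-likelihood adjusted p = 0.000334), and it passed in each of 18 alternative analyses (highest adjusted p = 0.00432). Between NGO-treated and stripped control skin it fell by 1.56 ± 0.41 on the log2 scale, a 2.95-fold lower level (edgeR adjusted p = 0.0436). This second call is fragile: it failed when unstripped replicate 3, stripped control replicate 2 or 3, or any NGO library was left out (edgeR adjusted p from 0.0613 to 0.128), and in a fit of the 2 compared groups (0.0564), with values of -1.76 to -1.41 in the 9 fits that leave out a library. Against unstripped skin the NGO-treated level differed by 1.55 ± 0.41 and missed the threshold (edgeR adjusted p = 0.0706), although 7 of 18 alternatives called it higher (adjusted p from 0.000232 to 0.339 over all 18). The first 2 comparisons share the stripped control libraries, so a rise in one and a fall in the other are not independent.

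**Figure D1:**
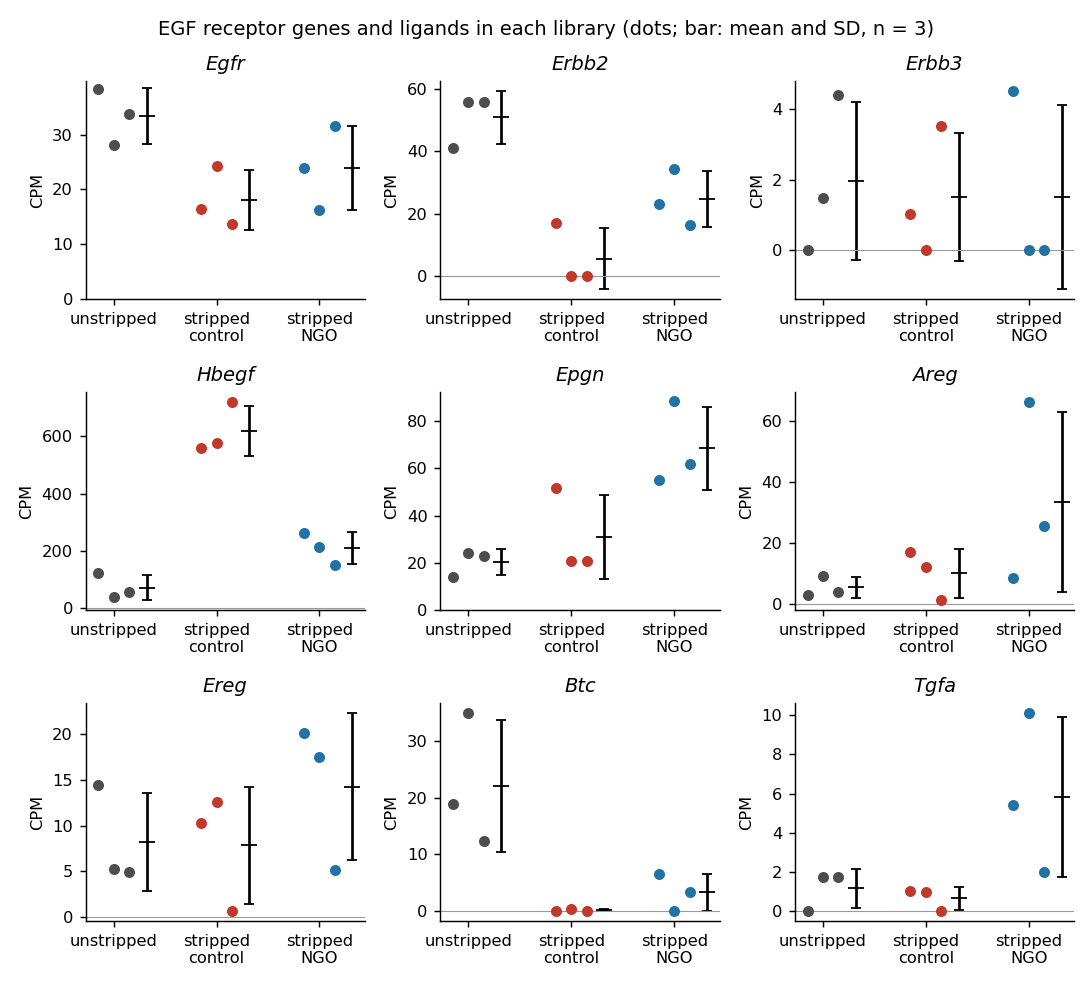
Level of each of the 9 genes in each library, in CPM on linear axes with a separate scale per gene; dots are libraries, and the bar beside each group is the mean and SD of 3. Hbegf separates into 3 levels, with 559 to 720 CPM in stripped control skin, where Btc lies at or near 0. Erbb2 is at 0 in 2 of 3 stripped control libraries and at 17.0 CPM in replicate 1. Areg, Ereg and Erbb3 spread widely within groups.

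The genes for epigen, epiregulin, amphiregulin and betacellulin are neighbours on mouse chromosome 5. In mm10 coordinates of GENCODE M21, Epgn spans 91027464 to 91035215, Ereg 91074622 to 91093646, Areg 91139599 to 91148432, and Btc 91357261 to 91402994 on the opposite strand, with gaps of 39406, 45952 and 208828 bases between them and 375531 bases in all. Because these members lie side by side, the 250 bases before the start sites of the 3 that the RefSeq promoter table holds (build GRCm38.p6) are shown, 5′ to 3′ on the strand of the gene. Capitals mark matches to the TATA box letters TATAAA and to the cAMP response element letters TGACGTCA, searched on both strands.
Epgn, chr5:91027267-91027516, plus strand: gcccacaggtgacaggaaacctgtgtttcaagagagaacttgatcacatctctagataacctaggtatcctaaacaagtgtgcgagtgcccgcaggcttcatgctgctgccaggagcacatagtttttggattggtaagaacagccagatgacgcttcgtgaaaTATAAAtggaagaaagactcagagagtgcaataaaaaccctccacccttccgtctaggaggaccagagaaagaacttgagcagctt
Areg, chr5:91139349-91139598, plus strand: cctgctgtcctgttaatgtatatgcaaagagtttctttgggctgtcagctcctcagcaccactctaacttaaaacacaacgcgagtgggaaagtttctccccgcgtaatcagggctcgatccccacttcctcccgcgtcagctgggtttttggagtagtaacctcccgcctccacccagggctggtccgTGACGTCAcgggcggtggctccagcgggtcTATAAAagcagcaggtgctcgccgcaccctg
Btc, chr5:91402995-91403244, minus strand: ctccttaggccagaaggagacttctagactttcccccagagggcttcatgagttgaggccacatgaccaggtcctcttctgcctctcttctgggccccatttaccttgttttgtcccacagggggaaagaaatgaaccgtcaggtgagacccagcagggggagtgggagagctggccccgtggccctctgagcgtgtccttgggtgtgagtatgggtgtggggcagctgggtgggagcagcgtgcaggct
The Areg window held both motifs, with TGACGTCA starting 61 bases and TATAAA 31 bases before the start site. The Epgn window held TATAAA alone, 86 bases before the RefSeq start site. That start site lies 53 bases inside the GENCODE gene given above, so the same TATAAA is 33 bases before the GENCODE start. For Areg and Btc the start sites are the same in both annotations. The Btc window held neither motif. Over 32851 promoters of the same length, 1.55% held TGACGTCA and 12.4% held TATAAA. The AP-1 letters TGANTCA, found in 6.75% of those promoters, were in none of the 6 member promoters of the table (Egfr, Erbb2, Tgfa, Areg, Btc and Epgn). A match is a description of the letters and not a binding site, and the motifs do not overlap each other in these windows.

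Btc, the gene for betacellulin, was the ligand gene that fell with stripping. It had 55, 119 and 42 counts in unstripped skin (18.8, 34.9 and 12.3 CPM), 0, 1 and 0 in stripped control skin, and 22, 0 and 20 in NGO-treated skin (6.61, 0 and 3.31 CPM). Stripped control skin thus held a single Btc count in 3 libraries, and every unstripped library lay above every stripped library of either cream. The level in stripped control skin was 0.00552 of that in unstripped skin by summed counts (95% interval of the ratio 0.000139 to 0.0311, counting error only). The fall passed the test (edgeR adjusted p = 0.0311, fitted log2 fold change -7.17 ± 2.02, a value that depends on the prior count), but was lost without any 1 of the unstripped replicates or without stripped control replicate 1 or 3 (adjusted p from 0.0542 to 0.143). NGO-treated against stripped control skin gave a fitted log2 fold change of 4.44 ± 1.87 that did not pass (edgeR adjusted p = 0.189), with NGO replicate 2 at 0. NGO-treated against unstripped skin gave -2.73 ± 1.55 (edgeR adjusted p = 0.592).

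Epgn, the gene for epigen, was highest under NGO cream. Its level was 14.0, 24.0 and 22.9 CPM in unstripped skin, 51.5, 20.7 and 20.8 CPM in stripped control skin and 55.0, 88.4 and 61.7 CPM in NGO-treated skin. All NGO-treated libraries lay above all others, while stripped control replicate 1 alone stood clear of the unstripped range. The log2 fold change was 1.75 ± 0.55 for NGO-treated against unstripped skin (edgeR adjusted p = 0.161), 1.15 ± 0.55 for NGO-treated against stripped control skin (0.247) and 0.60 ± 0.55 after stripping (0.546). None of these passed. The first was called by DESeq2 (adjusted p = 0.0296), by limma-voom with sample weights (0.0137) and by edgeR in a fit of the 2 compared groups (0.0334), and over all 18 alternatives its adjusted p ran up to 0.477.

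Areg, the gene for amphiregulin, gave 3.08, 9.38 and 4.10 CPM in unstripped skin, 17.0, 12.3 and 1.28 CPM in stripped control skin and 8.71, 66.3 and 25.7 CPM in NGO-treated skin. The groups overlapped in all 3 comparisons, and the NGO-treated libraries ranged over 29 to 288 counts. The fitted log2 fold changes were 0.87 ± 1.07 after stripping, 1.73 ± 1.08 for NGO-treated against stripped control skin and 2.59 ± 1.12 for NGO-treated against unstripped skin, and none passed (edgeR adjusted p = 0.677, 0.391 and 0.366). Besides keratinocytes, mast cells and innate lymphoid cells are known to make amphiregulin. Mast cell and basophil markers took at most 0.00214% of counts in any library, and 4, 4 and 3 of 8 markers were at 0 in all libraries of the unstripped, stripped control and NGO-treated groups, Fcer1a in each. T cell and innate lymphoid markers, 7 genes in the tables, took 0.0897% to 0.161%, 0.0153% to 0.0166% and 0.0230% to 0.0417% in the same order. Of the 5 that were tested, 1 was called higher and 2 lower after stripping. Gata3, which keratinocytes also express, is in that list.

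Ereg, the gene for epiregulin, was at 14.4, 5.28 and 4.98 CPM in unstripped skin, 10.3, 12.6 and 0.639 CPM in stripped control skin and 20.1, 17.5 and 5.13 CPM in NGO-treated skin. Groups overlapped throughout, and the difference after stripping was near 0 (log2 fold change -0.07 ± 1.23, 95% interval -2.72 to 2.59). An interval this wide leaves differences of several fold in either direction undetectable at this depth and spread. NGO-treated skin differed from stripped control skin by 0.86 ± 1.24 and from unstripped skin by 0.79 ± 1.23 (edgeR adjusted p = 0.758 and 0.957).

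Tgfa, the gene for transforming growth factor alpha (chromosome 6, 86195223 to 86275719), had few counts: unstripped libraries held 0, 6 and 6, stripped control libraries 2, 3 and 0, and NGO-treated libraries 18, 44 and 12. The NGO-treated libraries, at 1.99 to 10.1 CPM, lay above all others, which reached 1.76 CPM in unstripped and 1.03 CPM in stripped control skin. The lowest NGO library thus stood only just above the highest unstripped level, on few counts. The summed level under NGO was 8.81 times that of stripped control skin (95% interval 3.61 to 27.9) and 4.38 times that of unstripped skin (2.36 to 8.86). These intervals cover counting error alone. Without the low-count filter edgeR did not call either difference, and no alternative that tested Tgfa called it (lowest adjusted p = 0.258 and 0.631).

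Setting the ligands beside each other within a library gives values that do not depend on scaling. The reads come from the 3′ ends of transcripts, so counts stand for transcripts and were not divided by gene length. Egf itself, the seventh gene for a ligand of this receptor, had 0 to 48 counts and was summed with the 6 others. Hbegf made up 70.8%, 31.4% and 53.1% of ligand counts in the unstripped libraries, 86.1%, 90.3% and 95.8% in those stripped under control cream and 73.4%, 53.1% and 58.8% in those under NGO. Stripped control skin lay above both other groups, and NGO-treated and unstripped skin overlapped. The mean share differed by 39.0 percentage points after stripping and by -29.0 points between NGO-treated and stripped control skin (exact two-sided permutation p = 0.1 each, the smallest that 3 against 3 allow), and by 9.99 points between NGO-treated and unstripped skin (exact permutation p = 0.5). The other ligands differed in what filled the rest. Btc took 10.9%, 29.0% and 12% of ligand counts in unstripped skin and 0% to 1.84% in every stripped library. Epgn took 15.3% to 24.3% with NGO, 2.76% to 7.93% after stripping alone and 8.15% to 22.3% without stripping. Areg took 16.4% and 10.1% in NGO replicates 2 and 3 and at most 7.79% in any other library.

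**Figure D2:**
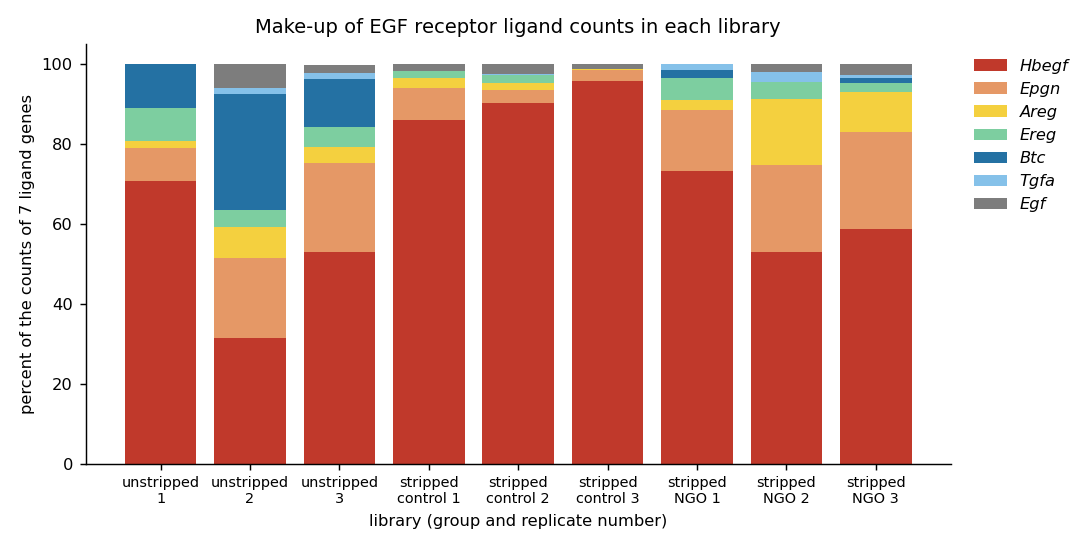
Make-up of ligand counts in each of the 9 libraries, as the percent of the summed counts of 7 ligand genes (350 to 2351 counts a library) on an axis from 0. Hbegf fills 86.1% to 95.8% of the bar in stripped control skin, Btc is visible chiefly in unstripped skin (10.9% to 29.0%), and Epgn takes 15.3% to 24.3% under NGO.

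The receptor gene Egfr (chromosome 11, 16752203 to 16918158, plus strand) encodes the receptor that all of these ligands bind. It was at 38.3, 28.1 and 33.7 CPM in unstripped skin, 16.5, 24.2 and 13.7 CPM in stripped control skin and 24.0, 16.3 and 31.6 CPM in NGO-treated skin. Every stripped control library was below every unstripped library, and NGO-treated skin overlapped both. The change after stripping was -0.88 ± 0.63 on the log2 scale and did not pass (edgeR adjusted p = 0.42, 95% interval -2.24 to 0.49). NGO-treated skin differed from stripped control skin by 0.40 ± 0.63 and from unstripped skin by -0.48 ± 0.63 (edgeR adjusted p = 0.779 and 0.937). None of 18 alternatives called Egfr in any comparison.

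Erbb2 (chromosome 11, 98412470 to 98437716) encodes a receptor with no ligand of its own that pairs with the other family receptors. It was at 41.1, 55.7 and 55.7 CPM in unstripped skin, 17.0, 0 and 0 CPM in stripped control skin and 23.1, 34.3 and 16.5 CPM in NGO-treated skin. The unstripped libraries were the highest and did not overlap either stripped group. The 2 zeros allow at most 0.970 and 0.959 CPM (3 counts of each library), so stripped control replicate 1, with 33 counts, differed from its replicates by more than counting error. With that spread the fall after stripping did not pass (log2 fold change -3.22 ± 1.34, edgeR adjusted p = 0.133). Without stripped control replicate 1, the only stripped control library with Erbb2 counts, the fall was called (edgeR adjusted p = 0.000155). So was the higher level under NGO than in stripped control skin (0.00183, against 0.36 with all libraries). Limma-voom with sample weights called the fall on all libraries (0.00943). In total 2 of 18 alternatives called the fall (adjusted p up to 0.248), and 1 of 18 called the NGO difference (adjusted p up to 0.644). Exons of Erbb2 overlap those of Mien1 on the other strand, and use of strand in counting was not given in the sources used here. Mien1 had 2, 115 and 65 counts in the same 3 stripped control libraries, lowest where Erbb2 was highest.

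Erbb3 (chromosome 10, 128567523 to 128589652) encodes a receptor for neuregulins that signals through its partner. Unstripped libraries held 0, 5 and 15 counts, stripped control libraries 2, 0 and 11, and NGO-treated libraries 15, 0 and 0. Its groups overlapped throughout, and no difference was detectable at this depth. Erbb4, the other neuregulin receptor gene and not a member, was at 9.38 to 25.2 CPM in unstripped skin and 37.8 to 129 CPM in stripped control skin (log2 fold change 1.94 ± 0.68, edgeR adjusted p = 0.0783). The neuregulin gene Nrg4 was at 1.17 to 6.16 CPM in unstripped skin, at 0 in all 3 stripped control libraries and at 4.2 to 9.66 CPM under NGO, and neither difference passed (edgeR adjusted p = 0.0707 and 0.0827). Among family genes outside the members (Egf, Erbb4 and the neuregulin genes), DESeq2 called 1 higher and 1 lower after stripping. It also called 1 higher with NGO against stripped control skin. After stripping edgeR called 1 higher without the low-count filter or without NGO replicate 3.

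Over all tested members, 1 of 7 was called higher and 1 of 7 lower after stripping, where 5.97% and 7.64% of the 13740 genes tested were called higher and lower (13.6% either way). Between NGO-treated and stripped control skin 1 of 7 was called lower and 0 higher, beside 1.18% and 3.87% of all genes (5.05% either way). Between NGO-treated and unstripped skin edgeR called 0 of 7, beside 2.06% higher and 0.451% lower of all genes (2.51% either way), with 3 of 7 at an unadjusted p under 0.05 (Hbegf, Epgn and Areg), and DESeq2 and limma-voom called 2 each. After stripping 1 of 7 tested members lay wholly above and 3 of 7 wholly below the unstripped group, beside 13.8% and 24.7% of all genes (38.5% either way). NGO-treated libraries lay wholly above the stripped control libraries for 1 of 7 and wholly below for 1 of 7, beside 16.3% and 8.92% (25.2%). They lay wholly above the unstripped libraries for 2 of 7 and wholly below for 2 of 7, beside 11.9% and 14.4% (26.2%). The members' median log2 fold changes were -0.07, 1.15 and 0.79, beside -0.20, 0.07 and -0.07 for all genes. With so few members these counts describe the list and single nothing out.

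**Figure D3:**
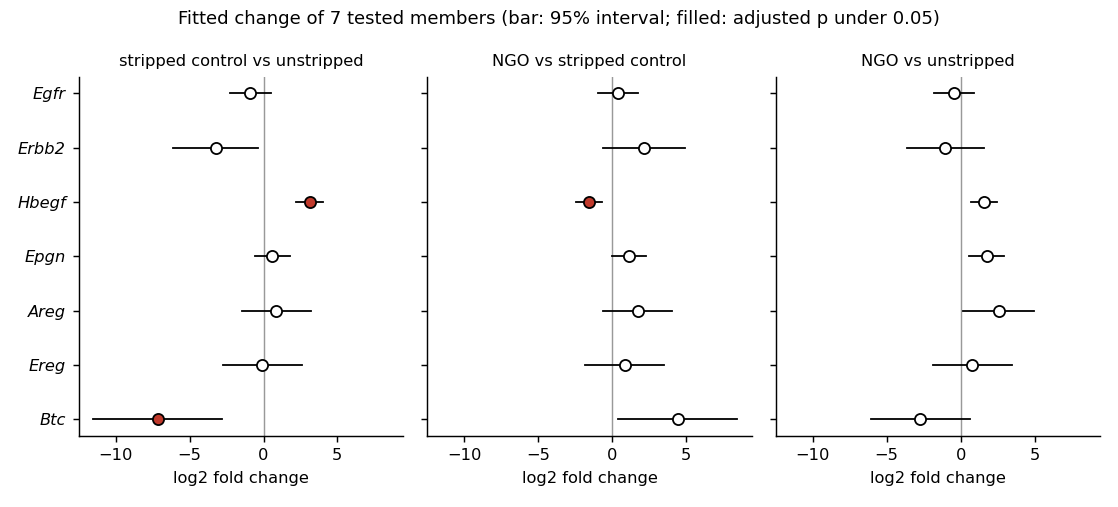
Fitted log2 fold change of the 7 tested members in the 3 comparisons, with 95% intervals from the edgeR fit; filled points have an adjusted p under 0.05. Hbegf is filled in the first comparison (3.12) and on the other side of 0 in the second (-1.56), Btc is filled in the first, and the intervals of Btc, Erbb2, Ereg and Areg span several log2 units.

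Hbegf and Egfr transcripts stood in a different ratio in each group. The log2 ratio of Hbegf to Egfr counts was 0.93 ± 0.65 (SD, n = 3 here and below) without stripping, 5.11 ± 0.57 with stripping and control cream, and 3.13 ± 0.78 with stripping and NGO. The 3 groups did not overlap, and each pair of groups had an exact two-sided permutation p = 0.1, the smallest this design allows. In summed counts there were 1.09 to 2.17 ligand counts per count of the 3 receptor genes without stripping, 18.8 to 43.5 with stripping and control cream, and 5.29 to 8 with NGO. These values depend on which receptor genes are summed, and Erbb4 was left out. Erbb4 had 68, 32 and 86 counts in unstripped, 251, 117 and 174 in stripped control and 263, 299 and 96 in NGO-treated libraries. The 3 summed receptor genes had 232, 291 and 320, then 67, 75 and 54, then 172, 220 and 291. In stripped control skin Erbb4 thus exceeded the 3 together.

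Because basal keratinocyte markers differed so much between groups, each member was also set against their summed counts. Egfr had 1.20 to 1.31 counts per 1000 basal marker counts without stripping, 6.79 to 7.95 with stripping and control cream, and 1.27 to 2.15 with NGO. On this scale stripped control skin was highest, the reverse of its place in CPM. Hbegf had 1.63 to 3.81, 190 to 382 and 10.2 to 17.5 per 1000 in the same order. Its groups kept their order and separation by construction, because the basal marker share ran in the opposite order to Hbegf CPM. Epgn had 0.439 to 1.03, 6.78 to 21.2 and 2.90 to 7.21 per 1000, so its place under NGO changed from highest in CPM to overlapping with stripped control skin. Btc had 0.478 to 1.5, 0 to 0.106 and 0 to 0.349 per 1000. Its mean was lowest in stripped control skin on both scales, with stripped control and NGO-treated libraries overlapping on each. Areg, whose groups overlapped in CPM, had 0.0963 to 0.404 per 1000 without stripping, 0.678 to 7 with stripping and control cream, and 0.46 to 5.41 with NGO, so both stripped groups lay wholly above the unstripped one. Erbb2 had 1.28 to 2.4, 0 to 7 and 1.13 to 2.8 per 1000, and its groups, apart in CPM after stripping, overlapped on this scale. Tgfa lay above the unstripped group with NGO (0.135 to 0.826 against 0 to 0.0757 per 1000) but overlapped stripped control skin, at 0 to 0.424. Ereg and Erbb3 overlapped in every comparison on both scales. The basal markers are themselves changed by stripping and are not a count of cells. Their summed counts were 79260 to 93463 without stripping, 4713 to 9435 with stripping and control cream, and 53275 to 88769 with NGO. A gene with an unchanged CPM therefore rises on this scale in stripped control skin.

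**Figure D4:**
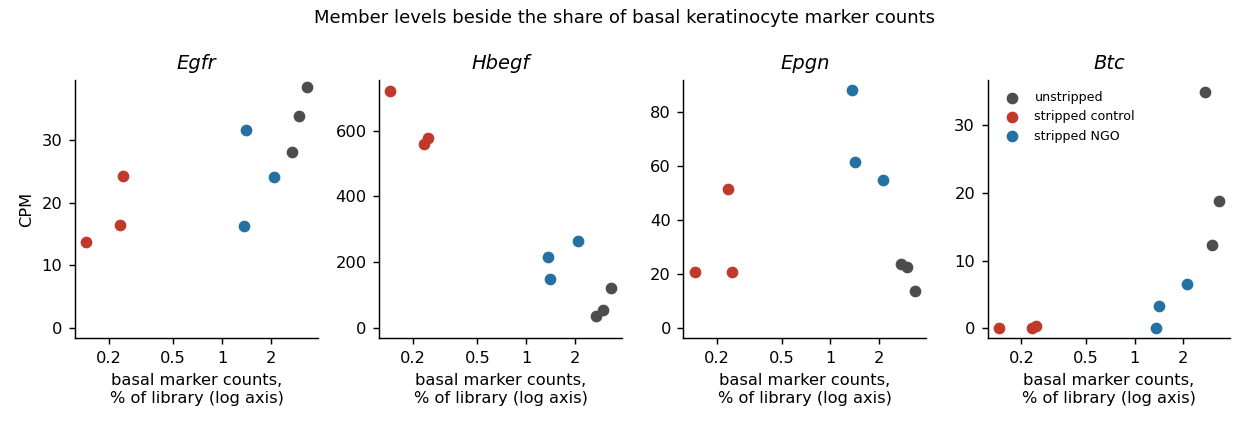
Level of 4 members in CPM (linear axes) against the share of library counts from 10 basal keratinocyte markers (log axis), with 1 dot per library. Stripped control libraries sit at 0.145% to 0.246% basal marker counts with the highest Hbegf and almost no Btc, and NGO-treated libraries sit at 1.36% to 2.10% with the highest Epgn.

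The genes that cut ligands loose were next. Of 9 tested shedding genes (11 listed) 2 fell and 0 rose after stripping, beside 7.64% of all genes called lower, and their median log2 fold change was -0.74 beside -0.20 for all genes. They were Adam17, the main protease that releases EGF receptor ligands, which went from 134, 131 and 95.9 CPM to 18, 14.2 and 42.5 CPM (-2.27 ± 0.50, edgeR adjusted p = 0.00874), and Rhbdf1, an inactive rhomboid that helps ADAM17 mature, which went from 65.7, 30.2 and 44.9 CPM to 0, 2.26 and 7.35 CPM (-3.80 ± 0.92, adjusted p = 0.0141). The Rhbdf1 call was lost without unstripped replicate 1, with limma-voom and in a fit of the 2 compared groups (adjusted p from 0.0516 to 0.0641). Under NGO 1 of 9 rose against stripped control skin, beside 3.87% of all genes called higher. It was Rhbdf1, at 52.3, 37.0 and 45.3 CPM (3.74 ± 0.92, edgeR adjusted p = 0.035). That call failed in the same 2 alternatives, when stripped control replicate 2 was left out, and when any unstripped or NGO library was left out (adjusted p up to 0.147). Adam17 under NGO, at 79.3, 37.3 and 58.1 CPM, did not pass against either group (edgeR adjusted p = 0.172 and 0.416).

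In a list of genes grouped as restraining the receptor, 2 of 19 tested rose and 1 fell after stripping, near the 5.97% and 7.64% of all genes called higher and lower (median -0.35, beside -0.20 for all genes). Lrig2 and Lrig1, which encode membrane proteins with leucine-rich repeats, rose by 2.07 ± 0.34 (edgeR adjusted p = 0.00115) and 1.71 ± 0.39 (0.0101). LRIG1 is known to promote the degradation of EGF family receptors, and the same role is not claimed here for LRIG2. Lrig2 went from 158, 89.1 and 103 CPM to 407, 616 and 443 CPM, and Lrig1 from 219, 151 and 152 CPM to 910, 421 and 377 CPM, so neither overlapped. Lrig1 was lost without unstripped replicate 2 or 3. Under NGO both were lower than in stripped control skin without passing (-1.14 ± 0.33 and -1.29 ± 0.38, edgeR adjusted p = 0.0646 and 0.0705). The count of restraint genes called lower there was 0, beside 1.18% of all genes. It was 1 with RLE scaling, with limma-voom or without stripped control replicate 1 or 3. It was 2 with upper-quartile scaling, without the filter or with DESeq2. Cdh1, the gene for the epithelial junction protein E-cadherin, fell by 4.16 after stripping and rose by 2.94 ± 0.34 with NGO (edgeR adjusted p = 1.15e-05 and 0.000707), in the direction of the basal keratinocyte markers. Errfi1, which encodes the feedback inhibitor MIG6, and the Sprouty gene Spry2 did not pass in any comparison. Between NGO-treated and unstripped skin edgeR called 0 of 19, beside 2.51% of all genes either way. Of the 19, 3 had an unadjusted p under 0.05 (Lrig2, Lrig3 and Cdh1). Over the 18 alternatives 0 to 1 were called higher and 0 to 1 lower, among them 1 lower with DESeq2, upper-quartile scaling or the replicate block.

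Of 28 genes that relay the signal, all tested, 3 fell and 0 rose after stripping, beside 7.64% of all genes called lower (median -0.12, beside -0.20 for all genes). The 3 were Gab1, a docking protein (-3.38 ± 0.94, edgeR adjusted p = 0.0286), Hras, a RAS GTPase (-1.52 ± 0.45, 0.0392), and Pik3r2, a regulatory subunit of phosphoinositide 3-kinase (-3.52 ± 1.08, 0.0463). These calls are unstable: over the 18 alternatives the count ran from 0 to 4, and it was 0 in a fit of the 2 compared groups and without unstripped replicate 2 or 3 or stripped control replicate 1. With RLE or upper-quartile scaling it was 1. With NGO 1 of 28 rose against stripped control skin and 1 against unstripped skin, beside 3.87% and 2.06% of all genes called higher. In each case the gene was the kinase gene Akt1 (1.19 ± 0.29, edgeR adjusted p = 0.0357, and 1.22 ± 0.29, edgeR adjusted p = 0.0426). It was at 185, 123 and 150 CPM in unstripped skin, 166, 167 and 137 CPM in stripped control skin and 416, 335 and 320 CPM in NGO-treated skin, where every library was above all 6 others. Both Akt1 calls failed when any NGO library, or unstripped replicate 2 or 3, was left out, the first also with RLE scaling and without stripped control replicate 2 or 3, and the second also without unstripped replicate 1. The first also failed in a fit of the 2 compared groups (edgeR adjusted p = 0.104) and the second with the replicate block (0.0581). Stat3 did not pass in any comparison.

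The readout genes that ERK signalling is known to induce held 4 of 18 tested that rose and 0 that fell after stripping, beside 5.97% and 7.64% of all genes (median 0.53, beside -0.20). Ier3, an early response gene, went from 25.0, 15.2 and 19.6 CPM to 223, 677 and 332 CPM (4.36 ± 0.49, edgeR adjusted p = 8.58e-05). Phlda1 went from 22.9, 12.3 and 23.2 CPM to 178, 226 and 228 CPM (3.43 ± 0.52, 0.000592), and the metalloproteinase gene Mmp10 from 0.342, 2.05 and 0.293 CPM to 19.6, 30.1 and 76.7 CPM (5.49 ± 1.19, 0.00761). These 3 passed in all 18 alternatives. Fosl1, an AP-1 subunit, was the other riser (3.74 ± 0.83, edgeR adjusted p = 0.00901). Many other pathways induce these genes, so their counts are not a measure of EGF receptor activity. Under NGO 1 of 18 fell against stripped control skin, beside 1.18% of all genes called lower. It was Egr1 (-1.60 ± 0.37, edgeR adjusted p = 0.0291). The call failed when stripped control replicate 2 or any NGO library was left out, and in a fit of the 2 compared groups (0.0781). The count was 2 with RLE or upper-quartile scaling, without the filter, with DESeq2 and with limma-voom. Ier3 did not pass that test (-1.56 ± 0.43, edgeR adjusted p = 0.0546). Against unstripped skin 3 of 18 rose, beside 2.06% of all genes called higher. They were Ier3 (2.80 ± 0.46), Phlda1 (2.51 ± 0.50) and Fosl1 (4.19 ± 0.85), with edgeR adjusted p = 0.00421, 0.0138 and 0.0152. Phlda1 was lost without unstripped replicate 2 or NGO replicate 2, and Fosl1 also without unstripped replicate 3; the count ran from 1 to 6 over the 18 alternatives. The feedback phosphatase gene Dusp6, a close reporter of ERK activity, was at 23.3 to 32, 37.6 to 58.2 and 52.9 to 153 CPM in the 3 groups and did not pass (1.84 ± 0.49 for NGO-treated against unstripped skin, edgeR adjusted p = 0.0729).

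**Figure D5:**
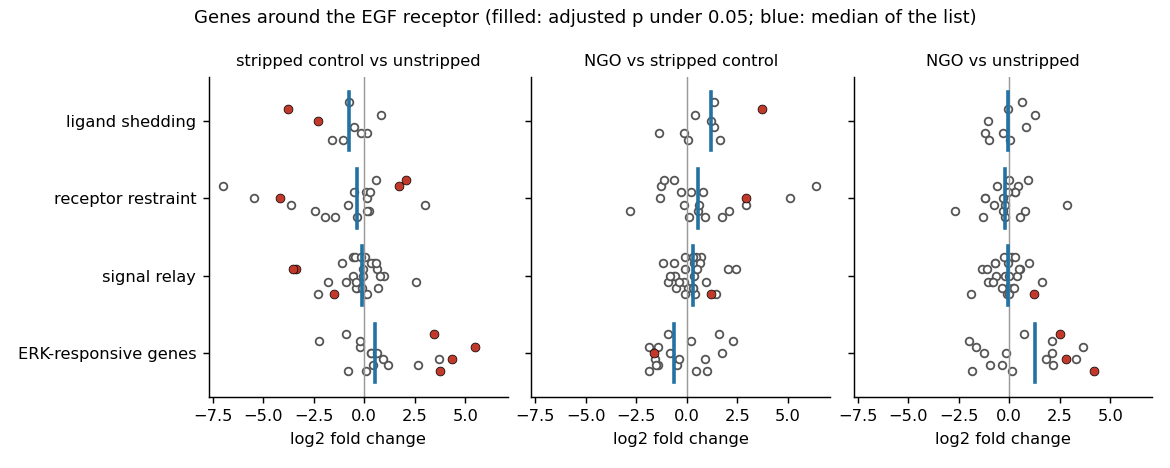
Fitted log2 fold change of the tested genes of 4 lists around the EGF receptor, in the 3 comparisons; each point is a gene, filled points have an edgeR adjusted p under 0.05, and the blue line is the median of the list. Few points are filled in any list, and 4 of 18 ERK-responsive genes are filled to the right of 0 after stripping.

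Genes whose pattern over the 9 libraries was most like a member's were sought among 10301 genes by the Pearson correlation of log2 CPM. Hbegf was closest to Dusp3 (r = 0.982) and Hydin (0.981), and Egfr to Cracr2b (0.977) and Dgcr6 (0.960). Btc was closest to Kdsr (0.988) and Ltbp4 (0.984), and Erbb2 to Bard1 (0.991) and Mfsd6 (0.990). Epgn was closest to Lce3f (0.919) and Zcchc9 (0.911), Areg to Ptprz1 (0.914) and C1qc (0.901), and Ereg to B4galt6 (0.945) and Igsf3 (0.938). The 9 libraries fall into 3 groups that differ in tissue make-up, which all of these genes share, so the values are descriptions without a test.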

How the data were processed

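The authors deposited unnormalised gene counts, 1 table for each of 9 QuantSeq 3′ libraries (500 ng RNA), with 23282 entries of 23238 symbols; the 44 repeat entries were kept apart. The submitters' processing notes name Bowtie2, bedtools and mm10, with no tool versions; counting rules are not given in the sources used here. Counts were fitted in R 4.3.3 with the edgeR 4.0.16 quasi-likelihood test (robust, TMM scaling, filterByExpr, 13740 genes kept) on all 9 libraries with group as factor, and p-values were adjusted over all genes by the Benjamini-Hochberg method, with calls at an adjusted p under 0.05. The fit was run on simulated counts to check that fold changes put in were returned. The simulation held no shift in tissue make-up, so it does not test the calls given here. CPM are counts scaled to 1000000 of the TMM-scaled library. The interval of a ratio of summed counts is an exact 95% interval for counting error. The members, gene lists and tests were chosen with earlier results of these data known, so no list is independent evidence. Genes named are the 9 members, up to 3 called genes per pathway list, direction and comparison with the smallest p, and the 2 genes most like each tested member (average log2 CPM of at least 3); genes named beyond these (among them Fosl1 after stripping, Erbb4, Nrg4, Dusp6, Errfi1, Spry2 and Mien1) were chosen after their values were seen. Promoters came from RefSeq (GRCm38.p6, the mm10 assembly) for 6 of 9 members and were searched over 250 bases. Alternatives were RLE and upper-quartile scaling, DESeq2 1.42.0, limma-voom 3.58.1 with sample weights, no filter, a stricter filter (20 counts in 3 libraries), a replicate block, fits restricted to both groups of a comparison, library sizes computed without muscle, adipocyte, blood and neutrophil markers and Rn45s, and leaving out each library.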

Additional observations from a re-analysis of the deposited data

How the results depend on the processing

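With 3 libraries a group and members with as few as 0 counts, depth and replicate spread limit what could be called for Tgfa, Erbb3, Btc and Ereg. The Hbegf rise after stripping passed in all 18 alternatives. Genes called after stripping numbered 1870 (43.9% higher), 3125 with DESeq2, and 1159 to 2124 when a library was left out, fewest without an unstripped replicate. Between NGO-treated and stripped control skin they numbered 694 (76.7% higher, 66.6% with RLE scaling), 1936 with DESeq2, 420 with limma-voom, 118 in a fit of the 2 compared groups, and 206 to 929 with a library left out. Between NGO-treated and unstripped skin they numbered 345, 805 with DESeq2, 1284 with limma-voom, 602 in a fit of the 2 groups, and 214 to 495 with a library left out. The cause of these shifts was not tested. Members called numbered 1 to 2, 0 to 2 and 0 to 1 over the fits leaving out a library in the 3 comparisons, 0 for NGO-treated against stripped control skin in a fit of the 2 groups, and, for NGO-treated against unstripped skin, 1 with upper-quartile scaling, no filter or a fit of the 2 groups and 2 with DESeq2 or limma-voom. The replicate numbers gave no pairing (correlation of deviations of same-numbered libraries from -0.06 to 0.09). With the replicate block, genes called were 1650, 559 and 313, and members called 1, 1 and 1: Btc lost its call (adjusted p = 0.0618) and Hbegf gained it against unstripped skin (0.0481). Directions that reversed were those of Ereg after stripping, at -0.07 and not called (0.07 with RLE scaling or DESeq2, 0.05 with upper-quartile scaling, 0.01 without the filter, -0.64 to 0.59 with a library left out), of Areg after stripping (-0.05 with limma-voom), and of the Hbegf share of ligand counts between NGO-treated and unstripped skin (-0.198 to 19.5 points with a library left out, below 0 without unstripped replicate 2). RLE scaling moved the median of all genes after stripping from -0.20 to -0.07, limma-voom to -0.62 and the replicate block to -0.46.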

Other observations

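A list of skin genes known to respond when the EGF receptor is blocked (keratin, barrier and chemokine genes, taken from general knowledge) held 7 of 12 tested that fell and 0 that rose after stripping, beside 7.64% and 5.97% of all genes (median log2 fold change -2.73, beside -0.20). The direction in which blockade moves each gene was not used in these counts. Krt1, Krt10 and Lor of this list are also suprabasal keratinocyte markers, and Trp63 is a basal one. Of 10 suprabasal markers, 9 were called lower after stripping (median -5.12), beside 7.64% of all genes. With NGO against stripped control skin 5 were called higher, beside 3.87% of all genes. Among the 7 were the suprabasal keratin genes Krt1 and Krt10 and the keratinocyte chemokine gene Ccl27a (edgeR adjusted p = 2.1e-05, 4.1e-05 and 4.76e-05). Of the other 5, 3 were fitted above 0. In the list, 1 gene was called higher with RLE or upper-quartile scaling, DESeq2, the replicate block or without unstripped replicate 1, and 2 with limma-voom. Against stripped control skin 4 of 12 of the blockade list rose with NGO, beside 3.87% of all genes called higher. They included Krt1 (6.03 ± 0.77), Ccl27a (3.15 ± 0.56) and the basal keratinocyte transcription factor gene Trp63 (2.22 ± 0.50). The count of 4 became 2 when any NGO library was left out or with limma-voom. It became 0 in an edgeR fit of the 2 compared groups, where Krt1 had an adjusted p of 0.053, Ccl27a 0.0678 and Trp63 0.12. Against unstripped skin 1 of 12 was higher and 5 of 12 lower, beside 2.06% and 0.451% of all genes. Krt6a, a wound keratin gene, was 2.92 ± 0.48 higher. Krt10 (-4.81 ± 0.54), Ccl27a (-3.19 ± 0.54) and Krt1 (-3.18 ± 0.59) were among the 5 that were lower. Without NGO replicate 2 the 5 became 3, and Krt1 lost its call (edgeR adjusted p = 0.0664). Basal keratinocyte marker shares were 2.71% to 3.34%, 0.145% to 0.246% and 1.36% to 2.10% in the 3 groups. Suprabasal marker shares were 0.938% to 1.68%, 0.0228% to 0.0508% and 0.148% to 0.277%. The part of both marker shares in these values was not tested.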
